A study of Mus musculus with 96 samples.

Results

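The genes described here are 57 chromatin regulators of 6 families named by their symbols: lysine demethylases (Kdm, 13 genes), histone deacetylases (Hdac, 10), SWI/SNF-related proteins (Smarc, 11), bromodomain proteins (Brd, 7), chromodomain helicases (Chd, 9) and lysine acetyltransferases (Kat, 7). They are the family symbols with a mean of at least 1 TPM (a level per transcript length, scaled to the same total in every cell) over all 96 cells, so they were chosen by their measured level, which is given as a description. Of 23955 gene rows, 64 carried such a symbol once Kdm5c, Kdm5d, Kdm6a and Chdh were set aside, and 57 of the 64 reached the mean. In all, 11015 genes reached it. Just inside the limit were Kdm4a at 1.74 TPM and Chd3 at 4.06 TPM. Just outside it were Hdac11 at 0.403 TPM, Kdm4b at 0.293 TPM and Brdt at 0.0603 TPM, while Chd5, Smarcd3, Smarca1 and Kdm4d were listed at 0 in every cell.

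The cells were c-Kit-selected splenocytes of 2 moribund mice with acute myeloid leukemia, 48 single cells from each. Both animals were Flt3ITD/ITD;Dnmt3afl/- MxCre: both Flt3 copies carried the activating internal tandem duplication, and of the Dnmt3a copies (a DNA methyltransferase gene) one was null and the other floxed for deletion by Cre. MxCre is Cre under the interferon-inducible Mx1 promoter, active in blood cells and in other tissues. The labels give no age, and control animals named in the protocol are not analysed here. Each mouse was 1 sample. Differences between mice and between cell states were therefore not tested. Each mouse had its own column prefix, whose meaning the labels do not give. A mouse therefore cannot be told apart from any batch in the handling of its cells.

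Chromatin regulators of these families act on the packaging of DNA around histones. Acetyltransferases add acetyl groups to histone tails, deacetylases remove them, and bromodomain proteins bind them, among them the BET proteins, such as Brd2 and Brd3, which are drug targets in myeloid leukemia. Demethylases erase methyl marks from histone lysines, and the SWI/SNF, ISWI and CHD remodelers use ATP to slide, eject or space nucleosomes.

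Promoter sequence was held for 42 of the 57 genes in the RefSeq table (GRCm38.p6; 250 bases before to 50 after the start). Printed here are the promoters of the BET genes Brd2 and Brd3, of Smarca5, whose level was among the most different between cell states, and of Kdm7a, which differed in the opposite direction. All 4 lie on the minus strand, at chr17:34119851-34120150 for Brd2 (first of 3 starts listed), chr2:27475349-27475648 for Brd3, chr8:80739410-80739709 for Smarca5 and chr6:39206724-39207023 for Kdm7a. Capitals mark the GC box GGGCGG or its complement CCGCCC.
Brd2: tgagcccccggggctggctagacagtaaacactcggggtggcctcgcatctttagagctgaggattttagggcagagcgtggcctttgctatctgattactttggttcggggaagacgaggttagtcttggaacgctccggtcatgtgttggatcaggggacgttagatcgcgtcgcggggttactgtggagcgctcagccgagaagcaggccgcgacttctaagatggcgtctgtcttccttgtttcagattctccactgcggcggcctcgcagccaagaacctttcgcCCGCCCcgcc
Brd3: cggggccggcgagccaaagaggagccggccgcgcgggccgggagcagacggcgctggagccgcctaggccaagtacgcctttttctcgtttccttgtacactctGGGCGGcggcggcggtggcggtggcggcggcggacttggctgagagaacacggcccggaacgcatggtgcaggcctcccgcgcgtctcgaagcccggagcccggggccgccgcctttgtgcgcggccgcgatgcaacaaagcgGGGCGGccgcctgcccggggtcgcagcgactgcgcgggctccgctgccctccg
Smarca5: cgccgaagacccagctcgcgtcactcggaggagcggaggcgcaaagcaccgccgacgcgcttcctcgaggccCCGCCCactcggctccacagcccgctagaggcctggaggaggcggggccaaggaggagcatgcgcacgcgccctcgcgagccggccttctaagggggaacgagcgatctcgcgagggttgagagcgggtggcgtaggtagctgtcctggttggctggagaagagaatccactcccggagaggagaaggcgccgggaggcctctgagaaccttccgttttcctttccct
Kdm7a: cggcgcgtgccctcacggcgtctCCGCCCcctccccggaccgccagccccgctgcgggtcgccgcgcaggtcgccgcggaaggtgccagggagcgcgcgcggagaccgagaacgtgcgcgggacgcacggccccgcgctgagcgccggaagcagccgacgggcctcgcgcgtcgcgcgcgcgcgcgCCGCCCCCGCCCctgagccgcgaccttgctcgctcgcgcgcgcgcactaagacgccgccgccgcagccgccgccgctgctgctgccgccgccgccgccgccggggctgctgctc
The 4 windows hold 24, 46, 32 and 65 CpG dinucleotides in that order, and that of Kdm7a was the richest of the 42.

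Most sequence features of the 42 promoters were about as frequent as in promoters of other genes with a mean of at least 1 TPM. The median number of CpG dinucleotides was 24 over the 42 promoters, 21 over the 8336 promoters of such genes, and 7 over all 27025. The GC box was found on either strand in 30 of 42 (71.4%), against 64.1% of the 8336 and 35.9% of all. The ETS-type sequence CCGGAAG was found in 8 (19%, against 19.7% and 9.12%), the CCAAT box in 16 (38.1%, against 39.2% and 37.9%), and TATAAA in 3 (7.14%, against 6.78% and 14.2%). The E-box CACGTG was found in 2 (4.76%, against 10.7% and 7.24%), the GAGGAAG sequence of PU.1-type ETS sites in 7 (16.7%, against 13.9% and 13.5%), and the NRF1 motif in 0 (against 2.21% and 0.977%). A match is a description of these windows and not a binding site.

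The cells were sorted into 4 states by 3 lineage genes at 1000 TPM or more, with the rest as the last state. The genes were taken in order: H2-Aa (a class II antigen-presentation chain), then S100a8 (a neutrophil protein), then Mpo (the myeloperoxidase of granulocyte-monocyte progenitors). Mouse 1 had 14 H2-Aa-high, 1 S100a8-high, 13 Mpo-high and 20 rest cells, and mouse 2 had 20, 10, 12 and 6. Class II and dendritic cell markers summed to a median of 86107 TPM in the H2-Aa-high cells of mouse 1, against 36.9 TPM in its rest cells. This list holds H2-Aa itself, with a median of 28826 TPM in those cells. The late neutrophil list holds S100a8, with a median of 134140 TPM in the S100a8-high cells of mouse 2. Part of each gap therefore follows from the sorting. Late neutrophil markers had a median sum of 424933 TPM in the S100a8-high cells of mouse 2, against 56.4 TPM in its rest cells, while stem and early progenitor markers were, within each mouse, highest in the rest cells (1136 and 734 TPM, against 3.01 to 791 TPM in the other states with more than 1 cell). The 7 genes of the T and NK cell list had median sums of 0 to 0.615 TPM by group, with a highest cell of 499 TPM among the S100a8-high cells of mouse 2, and Cd3e, Cd3g and Ncr1 were at 0 in every group. Erythroid markers (9 genes) had median sums of 1520 and 395 TPM in the rest cells of mice 1 and 2, the group used as reference, against 0 to 11.54 TPM in the other states with more than 1 cell. Granulocyte-monocyte progenitor markers had median sums of 682 and 506 TPM in the rest cells, and Mpo itself had medians of 162 and 8.9 TPM. Mast cell and basophil markers had median sums of 171 and 89.2 TPM there, against 230 and 199 TPM in Mpo-high cells. The part of these and of the erythroid markers in the differences from rest cells was not tested. Kit, the marker of the selection, reached 1 TPM in 40 cells in mouse 1 and in 31 in mouse 2, but in only 4 of the 10 S100a8-high cells. Dnmt3a reached this level in 19 and 17 of the 48 cells. With no control animal here, this does not check the deletion. TPM keeps no sequencing depth. In its place, the genes found per cell at that level numbered from 1759 to 5559 (median 3606) in mouse 1 and 1604 to 6018 (median 3083) in mouse 2.

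Most of the 57 genes were detected in a minority of cells. A gene was counted as detected at 1 TPM or more, which happened in 7 to 80 of the 96 cells, with a median of 36 cells against 23 for all genes with a mean of at least 1 TPM. Their mean levels ran from 1.74 to 174 TPM with a median of 20.8 TPM, against 18.3 TPM for all such genes. A group of 14 genes was detected in 48 or more cells and another 21 in fewer than 24. For 19 genes a single cell held at least 25% of the summed TPM, so their means rest on few cells.

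Kdm6b, the H3K27 demethylase also called Jmjd3, was the most widely detected gene, in 80 cells, and Smarca5, the ATPase of ISWI remodelers, followed with 79. Brd8, a subunit of the TIP60 acetyltransferase complex, was detected in 77 cells, the deacetylase Hdac1 in 75, Brd2 in 70, and the H3K4 demethylase Kdm5a and the SWI/SNF subunit Smarce1 in 68 each. By mean level the order was different, since Hdac1 led with 174 TPM, ahead of Smarce1 at 111 TPM and Smarca5 at 88 TPM. Smarcb1, a core SWI/SNF subunit, had a mean of 77.5 TPM, Brd8 of 75.3 TPM, Brd9 of 72.3 TPM and Brd7 of 71.4 TPM. Within single cells these levels spread widely: Hdac1 ran from 0 over a median of 97.2 to 2257 TPM in mouse 1, and from 0 over 49 to 963 TPM in mouse 2.

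The other families had lower leading genes. Among the demethylases Kdm5a was highest, and Kdm1a (Lsd1), which removes H3K4 methylation, averaged 61.2 TPM in mouse 1 but 22 TPM in mouse 2, and was detected in only 16 and 17 cells. Among the chromodomain helicases Chd6 had means of 19.3 and 33.9 TPM, of which 1 cell of mouse 2 at 724 TPM held 44.5% in that mouse, and 19.2 TPM in mouse 2 without it. Chd4, the ATPase of the NuRD corepressor, had 20.8 and 26.6 TPM. The acetyltransferase Kat2b (Pcaf) led its family through 1 cell at 2254 TPM, which held 78.4% of its total. It was the cell with the high Chd6 value, and it passed for both H2-Aa (6732 TPM) and Mpo (6730 TPM). The next were the MYST-type enzymes Kat8 (27.2 and 25.5 TPM, detected in 7 and 8 cells) and Kat5 (14.9 and 23.4 TPM, 6 and 7 cells). Hdac3, the deacetylase of the NCoR complex, had means of 36.4 and 47.9 TPM and was detected in 11 and 14 cells.

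The number of the 57 genes detected in a cell followed the number of all genes detected in it. Spearman's rho was 0.85 over the 48 cells of mouse 1 and 0.89 over the 48 cells of mouse 2; both counts come from the same libraries, and the coefficients are descriptions. H2-Aa-high cells held a median of 17.5 of the 57 genes (range 6 to 25) in mouse 1 and 14 (5 to 23) in mouse 2. Mpo-high cells held 26 (20 to 34) and 24.5 (22 to 40), and rest cells 26 (15 to 38) and 23 (16 to 34). The S100a8-high cells of mouse 2 held 16 (11 to 26). Per 1000 detected genes the medians lay closer together, at 6, 6.1 and 6.81 in the H2-Aa-high, Mpo-high and rest cells of mouse 1 and at 4.96, 6.2, 6.1 and 5.86 in the H2-Aa-high, Mpo-high, S100a8-high and rest cells of mouse 2.

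**Figure D1:**
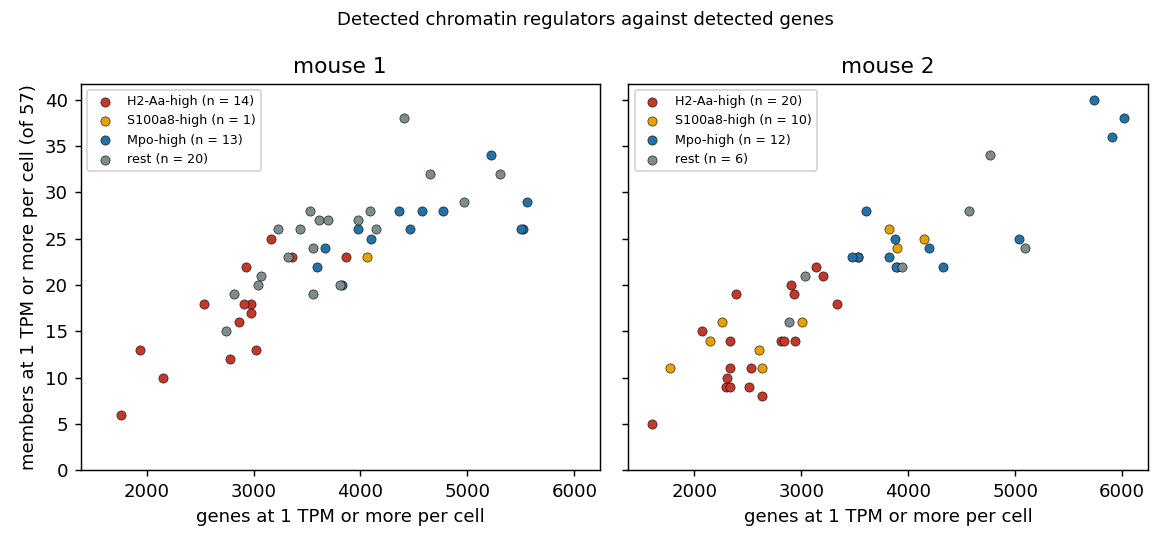
Number of the 57 chromatin regulators at 1 TPM or more (vertical axis) against all genes detected at that level (horizontal axis), 1 point per cell, coloured by state, for both mice. Cells with few detected genes, many of them H2-Aa-high, held as few as 5 of the 57 genes, and the fullest cell held 40.

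H2-Aa-high cells, present in number in both mice, held many chromatin regulators at lower levels than rest cells, about as often as they did other genes. The difference in mean log2(TPM + 1) was -1 or lower in both mice for 14 of the 57 genes (24.6%, against 19.3% of all 11015 genes), and 1 or higher in both mice for 1 gene, Kdm7a (against 4.11%). Among the 14 were Kdm5a and Kdm5b, Hdac2 and Hdac7, Smarca5, Smarcc1 and Smarce1, Brd2, Brd3, Brd8 and Brd9, Chd4, and Kat7. Over all 57 genes the median difference was -0.63 in mouse 1 and -1.13 in mouse 2, against -0.43 and -0.53 for all genes. Counted without a size limit, 32 of 57 genes (56.1%) were lower in both mice, against 50.5% of all genes, so the share past the limit and the share lower by any amount were near those of the transcriptome. A gene detected in few cells has little room to reach the limit: among the 54 members and 8718 genes detected in at least 10 cells the shares were 25.9% and 24.1%.

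H2-Aa-high cells also differed in how many genes they held at all. Their median number of detected genes was 2922 in mouse 1 and 2581 in mouse 2, against 3588 and 4252 in rest cells, and their 10 most abundant genes took a median of 22.4% and 24.2% of TPM, against 8.99% and 9.53%. A list of 13 cell-cycle genes summed to medians of 237 and 83.3 TPM in them, against 1704 and 2513 TPM in rest cells. With the number of detected genes removed by a linear fit, 7 genes were lower by 1 or more in both mice in place of 14. That number itself differed between H2-Aa-high and rest cells, so the fit can also take out part of the state difference. The count of 7 therefore cannot tell the number of detected genes apart from the state. The part of cell cycling in the differences was not tested.

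**Figure D2:**
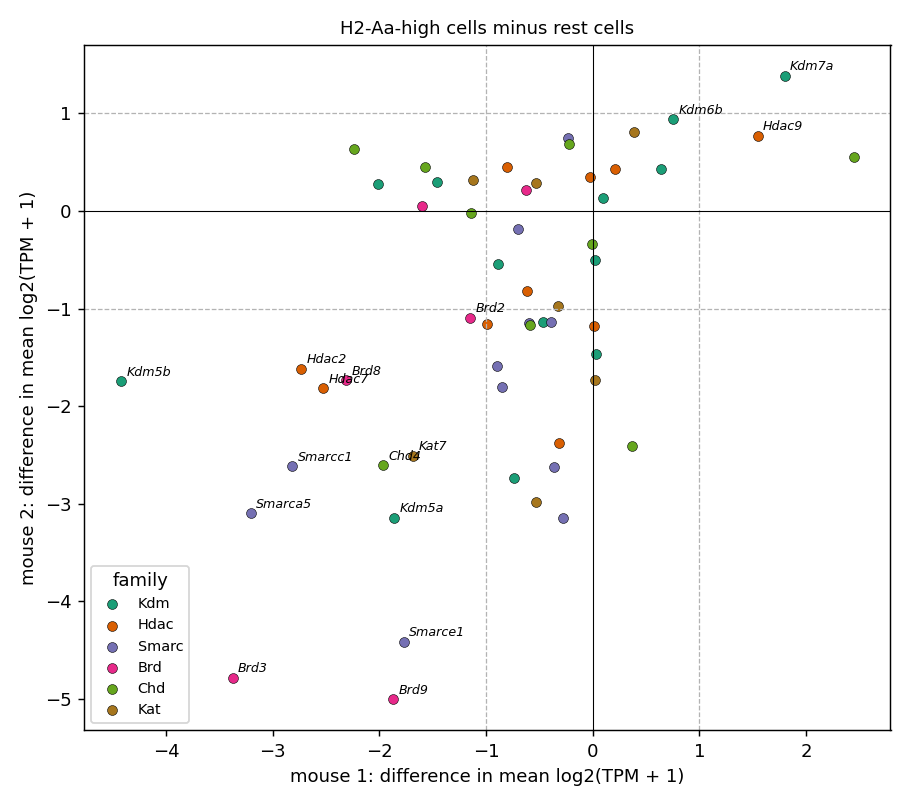
Difference in mean log2(TPM + 1) between H2-Aa-high and rest cells in mouse 1 (horizontal axis) and mouse 2 (vertical axis), 1 point for each of 56 genes, coloured by family, with dashed lines at -1 and 1. The lower left holds Brd3 at -3.38 and -4.78 and Smarca5 at -3.20 and -3.10 among others. Kdm7a alone lies past the line at 1 in both mice.

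The readers of acetylated histones were the family with the highest share of lower genes, 5 of 7 (71.4%, against 19.3% of all genes). The family median was -1.87 in mouse 1 and -1.74 in mouse 2, and -2.52 to -0.92 in mouse 2 when single rest cells were left out. With the number of detected genes removed, the family median was -1.01 in mouse 1 and 0.19 in mouse 2, so its direction in mouse 2 turns with that setting. Brd3 (chromosome 2, 27445579 to 27507662, minus strand) had the largest difference by the smaller of its values in the 2 mice (positions of genes are on GRCm38). It ran from 0 over a median of 0.23 to 135 TPM in the 14 H2-Aa-high cells of mouse 1, and from 0 over 67.9 to 272 TPM in the 20 rest cells. In mouse 2 the H2-Aa-high cells ran from 0 over 0.21 to 141 TPM, and the 6 rest cells from 10.5 over 76.9 to 690 TPM. Most H2-Aa-high cells were near 0 while nearly all rest cells held the transcript, yet the ranges overlapped in both mice: Brd3 was detected in 5 of 14 and 6 of 20 H2-Aa-high cells and in 16 of 20 and 6 of 6 rest cells. The difference in mean log2(TPM + 1) was -3.38 in mouse 1 and -4.78 in mouse 2, and -2.27 and -3.14 with the number of detected genes removed.

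Brd2 (chromosome 17, 34112023 to 34122634), which lies in the same chromosomal region as H2-Aa (34282744 to 34287823), had a median of 2.92 TPM in the H2-Aa-high cells of mouse 1 against 18.2 TPM in rest cells, and of 5.04 against 25.6 TPM in mouse 2, with overlapping ranges up to 262 and 457 TPM in mouse 1. Its differences were -1.15 and -1.09. Brd8 had medians of 6.85 against 81.6 TPM in mouse 1 and 2.48 against 28.2 TPM in mouse 2. Brd9, a subunit of the non-canonical SWI/SNF complex, was detected in 2 of 14 and 3 of 20 H2-Aa-high cells and in 9 of 20 and 5 of 6 rest cells, but 1 H2-Aa-high cell of mouse 2 reached 1076 TPM.

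Of the remodelers, 10 of the 11 Smarc genes (90.9%) had a lower mean in H2-Aa-high cells in both mice, against 50.5% of all genes. By 1 or more, 3 of the 11 were lower (27.3%, against 19.3% of all genes). Smarcb1 was the exception to the first count, at -0.23 and 0.75. Smarca5 (chromosome 8, 80698507 to 80739497, minus strand) ran from 0 over 9.49 to 272 TPM in the H2-Aa-high cells and from 0 over 96.4 to 379 TPM in the rest cells of mouse 1. In mouse 2 the values were 0, 4.65 and 298 TPM against 14.8, 76.5 and 402 TPM. The medians of the H2-Aa-high cells were the lower in both mice, although single cells reached the level of rest cells. The difference was -3.20 and -3.10, and -2.01 and -1.34 with the number of detected genes removed.

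Smarcc1 (Baf155; chromosome 9, 110117708 to 110240178, plus strand), a scaffold of the SWI/SNF core, was detected in 2 of 14 and 4 of 20 H2-Aa-high cells and in 19 of 20 and 5 of 6 rest cells, with differences of -2.82 and -2.62. Smarce1 differed by -1.77 and -4.41, from medians of 20.2 TPM in the H2-Aa-high and 103 TPM in the rest cells of mouse 1 and of 18.2 and 266 TPM in mouse 2. Chd4 had medians of 0.07 and 0.12 TPM in H2-Aa-high cells against 11.2 and 12.3 TPM in rest cells. It was the only one of the 9 chromodomain helicases past the limit in both mice.

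Among the eraser and writer enzymes 2 of 13 demethylases (15.4%), 2 of 10 deacetylases and 1 of 7 acetyltransferases (14.3%) passed the limit, near the 19.3% of all genes. Kdm5b, an H3K4 demethylase, was listed at 0 in all 14 H2-Aa-high cells of mouse 1 and stayed below 1 TPM in all 20 of mouse 2. It was detected in 15 of 20 rest cells of mouse 1 but in 2 of 6 of mouse 2. Tbp, a general transcription factor gene that every cell needs, was also listed at 0 in those 14 cells, so a 0 here is not read as absence. Kdm5a, the paralog of Kdm5b, had medians of 18.7 against 71.5 TPM in mouse 1 and 0.35 against 76.6 TPM in mouse 2. Hdac2 was detected in 2 of 14 and 4 of 20 H2-Aa-high cells, against 14 of 20 and 3 of 6 rest cells, and the class IIa deacetylase Hdac7 in 1 of 14 and 2 of 20, against 12 of 20 and 2 of 6. The acetyltransferase Kat7 (Hbo1) was detected in 1 of 14 and 2 of 20, against 9 of 20 and 5 of 6.

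The H3K27 demethylases Kdm7a and Kdm6b had the opposite direction. Kdm7a (chromosome 6, 39136623 to 39206789, minus strand), which also acts on H3K9 methylation, ran from 0 over 1.5 to 56.2 TPM in the H2-Aa-high cells of mouse 1 and from 0 over 0.07 to 15.2 TPM in the rest cells. In mouse 2 the H2-Aa-high cells ran from 0 over 4.48 to 163 TPM, while 5 of 6 rest cells were below 1 TPM and the last was at 203 TPM. It was detected in 8 of 14 and 12 of 20 H2-Aa-high cells and in 2 of 20 and 1 of 6 rest cells, and the ranges overlapped in both mice. The difference was 1.80 and 1.39, but in mouse 2 it depends on that cell: as a ratio of mean TPM it was -0.29 on the log2 scale, and with the highest cell of each group left out it was 2.42. With the number of detected genes removed it was 1.17 and 0.45, so that Kdm7a no longer passed the limit in both mice.

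Kdm6b (chromosome 11, 69398508 to 69413675, minus strand) had medians of 6.55 against 3.29 TPM in mouse 1 and 39.9 against 13.9 TPM in mouse 2, with differences of 0.76 and 0.94, within the limit of 1. In mouse 2 the difference ran from 0.19 to 1.58 when single rest cells were left out. The gap was 0.29 and 0.25 with the number of detected genes removed. The class IIa deacetylase Hdac9 was detected in 4 of 14 and 3 of 20 H2-Aa-high cells. In rest cells the counts were 0 of 20 and 1 of 6, and the differences were 1.55 and 0.77. The share of cells with Hdac9 in mouse 2 was thus not higher in H2-Aa-high than in rest cells. Over all cells of a mouse, 1 cell held 80.3% of the Hdac9 total in mouse 1 and 55.4% in mouse 2. Chd7, a remodeler of enhancers, was detected in 8 of 14 H2-Aa-high cells of mouse 1 and 4 of 20 of mouse 2, and reached 1 TPM in 0 of 20 and 0 of 6 rest cells.

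**Figure D3:**
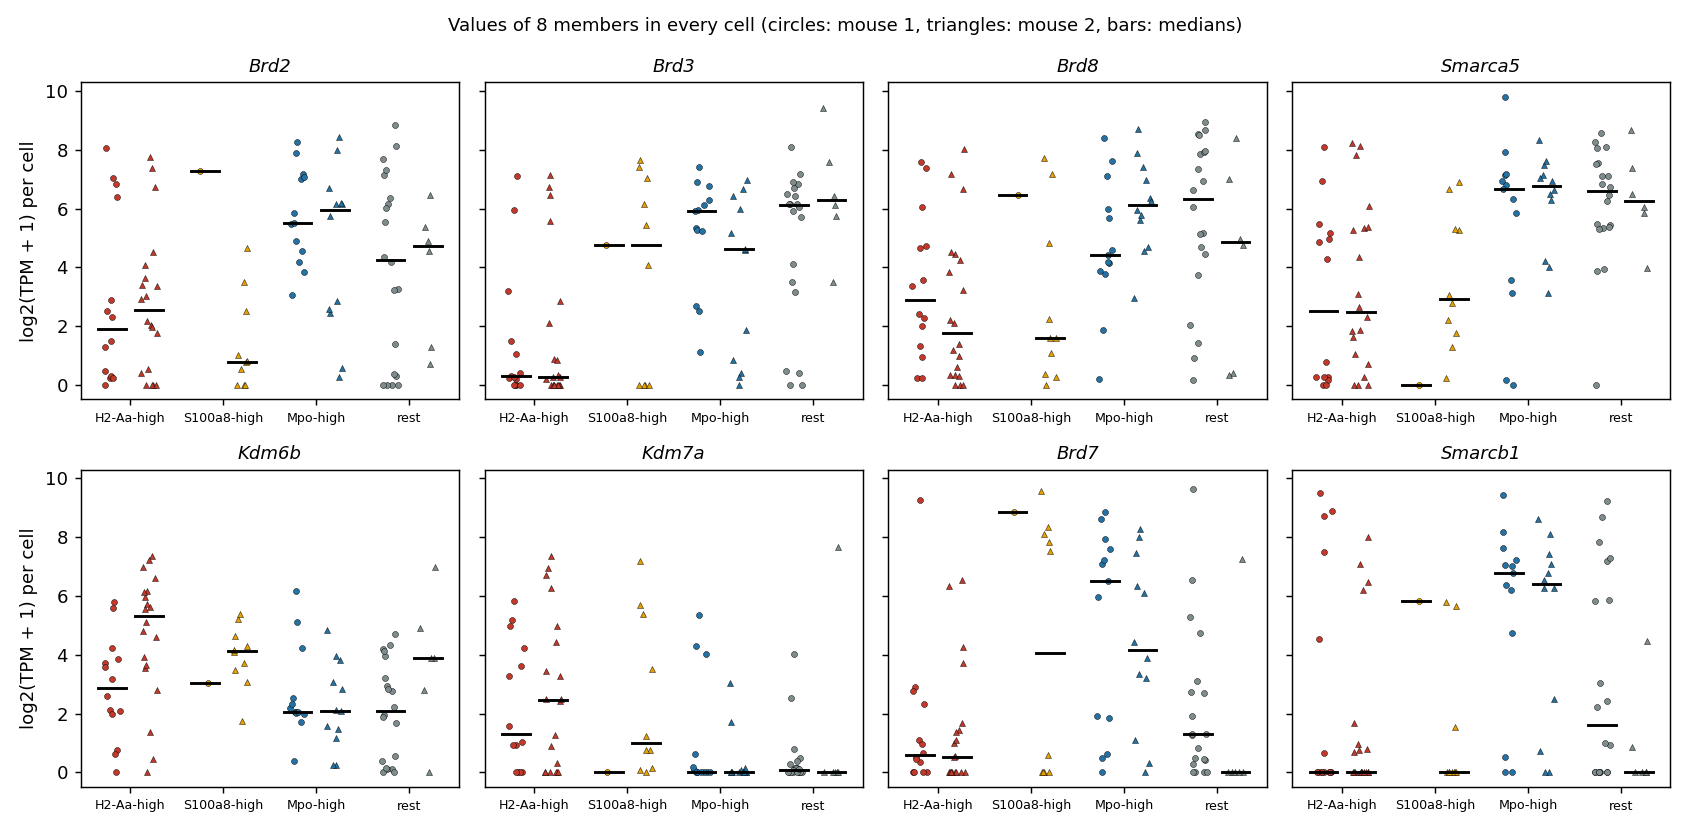
Level of 8 chromatin regulators in every cell, as log2(TPM + 1) (vertical axis), by state, with circles for mouse 1, triangles for mouse 2 and bars for medians. Brd3 and Smarca5 were near 0 in many H2-Aa-high cells while most rest cells lay high, and Brd7 and Smarcb1 were detected in most Mpo-high cells of both mice.

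In Mpo-high cells the 57 genes differed from rest cells in both directions, from -1.76 to 2.82 in mouse 1 and from -3.09 to 4.14 in mouse 2. The median difference over the 57 was 0.017 in mouse 1 and -0.047 in mouse 2, against 0.22 and 0.11 for all genes. Brd7 and Smarcb1 were higher by 1 or more in both mice (2 of 57, 3.51%, against 7.57% of all genes) and 1 gene was lower (1 of 57, 1.75%, against 1.63%). By any amount, 12 genes were higher (21.1%, against 35.8% of all genes) and 15 lower (26.3%, against 16.5%) in both mice, and the others differed in sign between the mice or were level. Mpo-high cells had medians of 4463 and 4041 detected genes against 3588 and 4252 in rest cells, and the cell-cycle list summed to medians of 2919 and 1622 TPM against 1704 and 2513 TPM. The part of these in the differences was not tested.

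Brd7, a bromodomain subunit of the PBAF form of SWI/SNF (chromosome 8, 88331039 to 88362194, minus strand), ran from 0 over 89.7 to 457 TPM in the 13 Mpo-high cells of mouse 1 and from 0 over 1.45 to 792 TPM in its 20 rest cells. In mouse 2 it ran from 0 over 17.1 to 309 TPM in 12 Mpo-high cells, and 1 of 6 rest cells held it, at 153 TPM. Detection in Mpo-high cells was common, in 10 of 13 and 10 of 12, but the highest single cell of mouse 1 was a rest cell. The differences were 2.82 and 3.16. Smarcb1 (chromosome 10, 75896769 to 75921617, minus strand) had medians of 110.0 against 2.31 TPM in mouse 1 and 84.4 against 0 TPM in mouse 2, with differences of 2.39 and 4.14. With the state threshold at 500 TPM the mouse 1 value was -0.35.

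Smarca4 (Brg1), an ATPase of SWI/SNF, followed with 1.33 and 1.00, the second value just under the limit. Its paralog Smarca2 (Brm) had -0.91 and -1.01, and the mouse 2 value turned to 0.064 without 1 of the 6 rest cells. Smarcd2, a SWI/SNF subunit with a known part in granulocyte maturation, had -0.43 and -2.73.

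In S100a8-high cells, which only mouse 2 held in number, 24 of the 57 genes were lower than in its rest cells by 1 or more (42.1%, against 36.1% of all genes) and 6 were higher (10.5%, against 10.3%). The median difference was -0.71, against -0.40 for all genes. These cells had a median of 2821 detected genes against 4252 in the rest cells, and their 10 most abundant genes took 54.8% of TPM against 9.53%, while the cell-cycle list summed to a median of 2042 TPM against 2513 TPM. After the 50 most abundant genes were left out and TPM rescaled, the count of lower genes was 24 as before, and with the number of detected genes removed it was 15. Only 6 rest cells served as the reference, and against all other cells of mouse 2 the count was 14.

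The lower genes included 5 of 7 bromodomain proteins (71.4%, family median -2.45), 6 of 11 Smarc genes (54.5%, -1.78) and 4 of 9 chromodomain helicases (44.4%, -0.71), where 36.1% of all genes were lower. In the other families 3 of 7 Kat genes (42.9%, -0.18), 4 of 13 Kdm genes (30.8%, 0.13) and 2 of 10 Hdac genes (20%, -0.18) were lower. The helicase median lay between -1.16 and -0.14 and the Smarc median between -2.14 and -1.17 when single cells were left out. Smarce1 ran from 0 over 18.6 to 264 TPM in the 10 S100a8-high cells and from 31.9 over 266 to 856 TPM in the 6 rest cells, a difference of -4.62. The ranges overlapped, with 5 of 10 S100a8-high cells holding the transcript. Brd9 was detected in 3 of 10 against 5 of 6 rest cells (-4.40), and the acetyltransferase Kat2a (Gcn5) in 0 of 10, against 4 of 6 (-4.21). Tbp was also detected in 0 of these 10 cells. Brd2 had a median of 0.73 TPM against 25.6 TPM.

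Among the 6 higher genes, Brd7 ran from 0 over 91 to 760 TPM in S100a8-high cells and was detected in 5 of 10, against 1 of 6 rest cells (difference 2.98). Chd7 ran from 0 over 3.43 to 125 TPM and was detected in 5 of 10, against 0 of 6 rest cells (2.15). Kat8 (Mof), the H4K16 acetyltransferase, was detected in 2 of 10 against 1 of 6 (1.44, and 0.74 without 1 cell, below the limit). The single S100a8-high cell of mouse 1 also held 34099 TPM of Mpo and stands for no group.

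**Figure D4:**
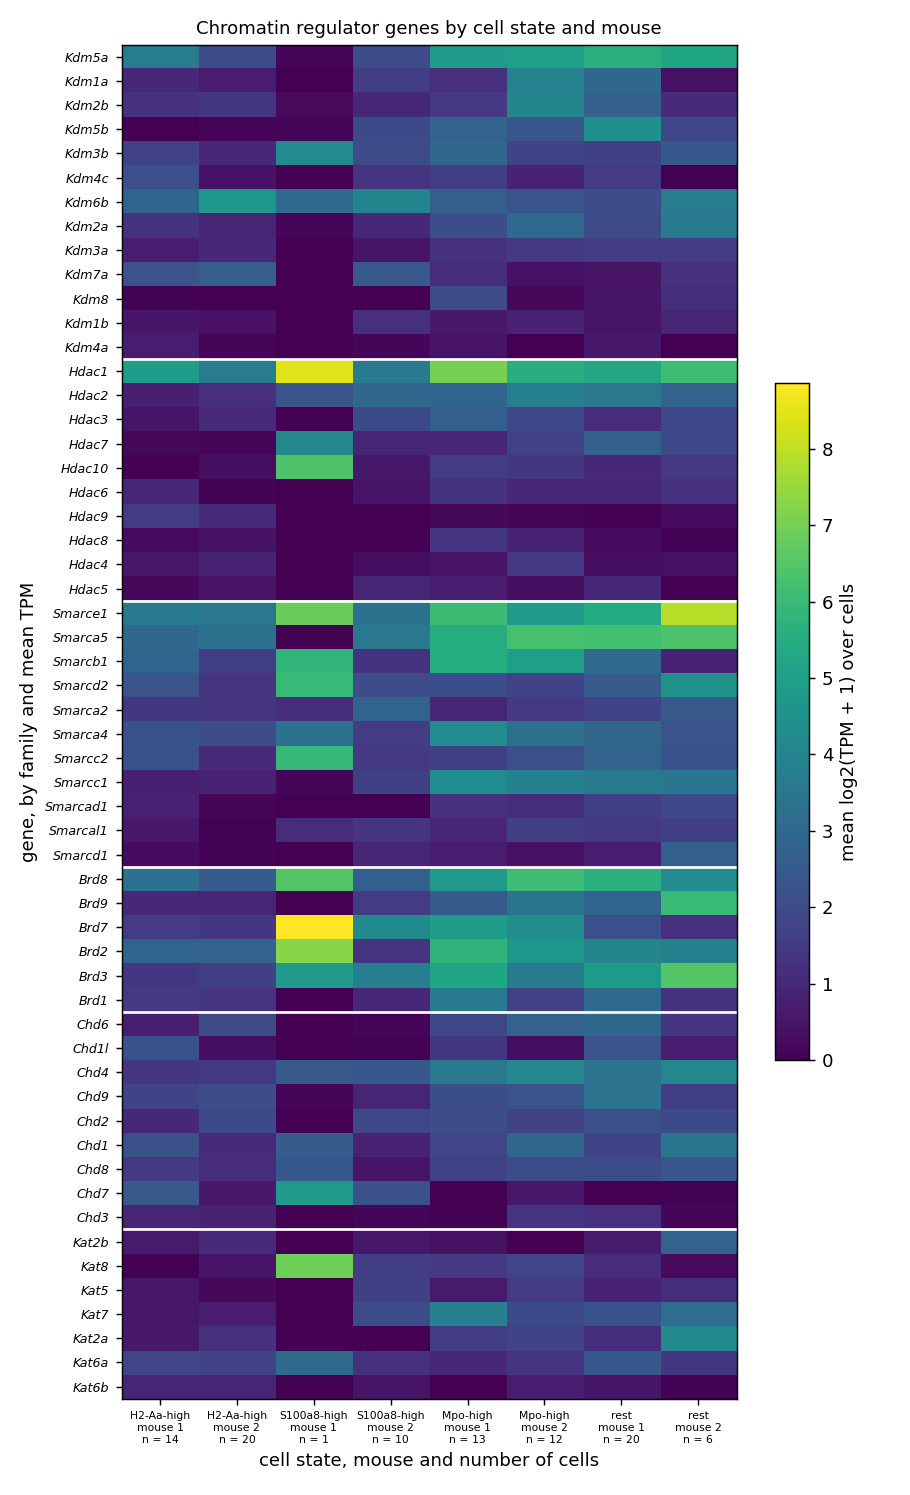
Mean log2(TPM + 1) of 56 of the 57 genes (a line for each gene, by family and mean TPM) in the 8 groups of cell state and mouse. Hdac1, Smarce1 and Smarca5 were high in most groups, most Brd genes were darker in both H2-Aa-high groups than in the rest and Mpo-high groups, and the column of the single S100a8-high cell of mouse 1 is 1 library.

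Between the mice, taken over all 48 cells of each, 10 of the 57 genes had a mean log2(TPM + 1) lower by 1 or more in mouse 2 (17.5%, against 11.6% of all genes) and 1 gene, Kdm6b, was higher (1.75%, against 1.59%). Among the 10 were Brd1, Brd2, Brd8, Chd1l, Hdac1, Kdm4c, Kdm5a, Kdm5b and Smarcb1. The bromodomain family gave 4 of the 10, and its family median was -0.29 without the H2-Aa-high and S100a8-high cells. The median over the 57 genes was -0.21, against -0.20 for all genes, and 40 of them were lower by any amount (70.2%, against 67.4%). The mice held different numbers of cells of each state: without the H2-Aa-high and S100a8-high cells 3 genes were lower and 4 higher, and among rest cells alone, 20 against 6, the counts were 12 and 10. With the number of detected genes removed, 4 genes were lower.

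Kdm6b ran from 0 over 3.62 to 70.4 TPM in the cells of mouse 1 and from 0 over 14 to 164 TPM in those of mouse 2, with detection in 37 and 43 of 48 cells and overlapping ranges (difference 1.32). By state, its median was 6.55 against 39.9 TPM in H2-Aa-high cells and 3.29 against 13.9 TPM in rest cells, but 3.19 against 3.28 TPM in Mpo-high cells. Without the H2-Aa-high and S100a8-high cells the difference was 0.44. Kdm7a came next at 0.74 and Kat2a at 0.40.

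Chd1l (Alc1; chromosome 3, 97560742 to 97610203, minus strand), a remodeler activated by poly(ADP-ribose), was detected in 17 of 48 cells of mouse 1, up to 580 TPM, and in 3 of 48 of mouse 2, up to 38.1 TPM. The cells that held it in mouse 1 were spread over the H2-Aa-high (5), Mpo-high (4) and rest (8) states. The difference was -1.65, and it lay between -1.48 and -1.58 without the H2-Aa-high and S100a8-high cells, among rest cells alone and with the number of detected genes removed. Kdm5a had medians of 59.4 and 3.99 TPM in mice 1 and 2 and a difference of -1.58, which was -0.26 without the H2-Aa-high and S100a8-high cells. Smarcb1 differed by -1.39, from detection in 27 against 18 cells.

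Closely related genes (paralogs), some of them alternative subunits of one complex, were compared as partners in 11 pairs. In 5 pairs the same partner had the higher mean TPM in both mice: Smarcd2 over Smarcd1, Hdac1 over Hdac2, Chd4 over Chd3, Kat6a over Kat6b and Kdm5a over Kdm5b. The widest was Smarcd2, at 36.3 and 34.6 TPM, over Smarcd1, at 3.99 and 4.44 TPM. Hdac1 stood at 241 and 108 TPM against 59 and 61.9 TPM for Hdac2, and Chd4 at 20.8 and 26.6 TPM against 4.38 and 3.73 TPM for Chd3. In the other 6 the order differed between the mice: Smarca4 was at 28.3 TPM and Smarca2 at 15.3 TPM in mouse 1, but at 18 and 31 TPM in mouse 2. A single cell held 42.6% of the Smarca2 total of mouse 2, and without it the mean was 18.2 TPM. Smarca4 was at 18 TPM over all cells of mouse 2 and at 15.4 TPM without its own highest cell.

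The same reversal was seen for Smarcc1 and Smarcc2, Chd1 and Chd2, Kat2a and Kat2b, Kdm2a and Kdm2b, and Kdm3a and Kdm3b, and single cells weighed on some of it: 87.7% of the Kat2b total and 53.2% of the Kdm3a total of mouse 2 each came from 1 cell. Without these cells Kat2b was at 6.72 TPM, below Kat2a at 17, and Kdm3a at 12.7 TPM, below Kdm3b at 13.3 TPM. With the highest cell of the other partner left out as well, Kat2a was at 14.6 TPM and Kdm3b at 10.02 TPM. Treated alike, Kat2b thus lay below Kat2a, while Kdm3a stayed above Kdm3b. For Chd1, 1 cell held 55.2% of the total of mouse 1, where Chd1 was below Chd2 with that cell included (14.1 and 18.8 TPM). In mouse 2, without the highest cell of each, Chd1 was at 10.97 TPM and Chd2 at 11.6 TPM. Both partners of a pair were detected in the same cell in a median of 18.8% of cells in mouse 1 and 16.7% in mouse 2 over the 11 pairs. Hdac1 and Hdac2 were found together in 20 of the 48 mouse 1 cells (41.7%, with an exact 95% interval of 27.6% to 56.8%) and in 18 of the 48 mouse 2 cells (37.5%, 24% to 52.6%). These intervals cover counting error only.

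**Figure D5:**
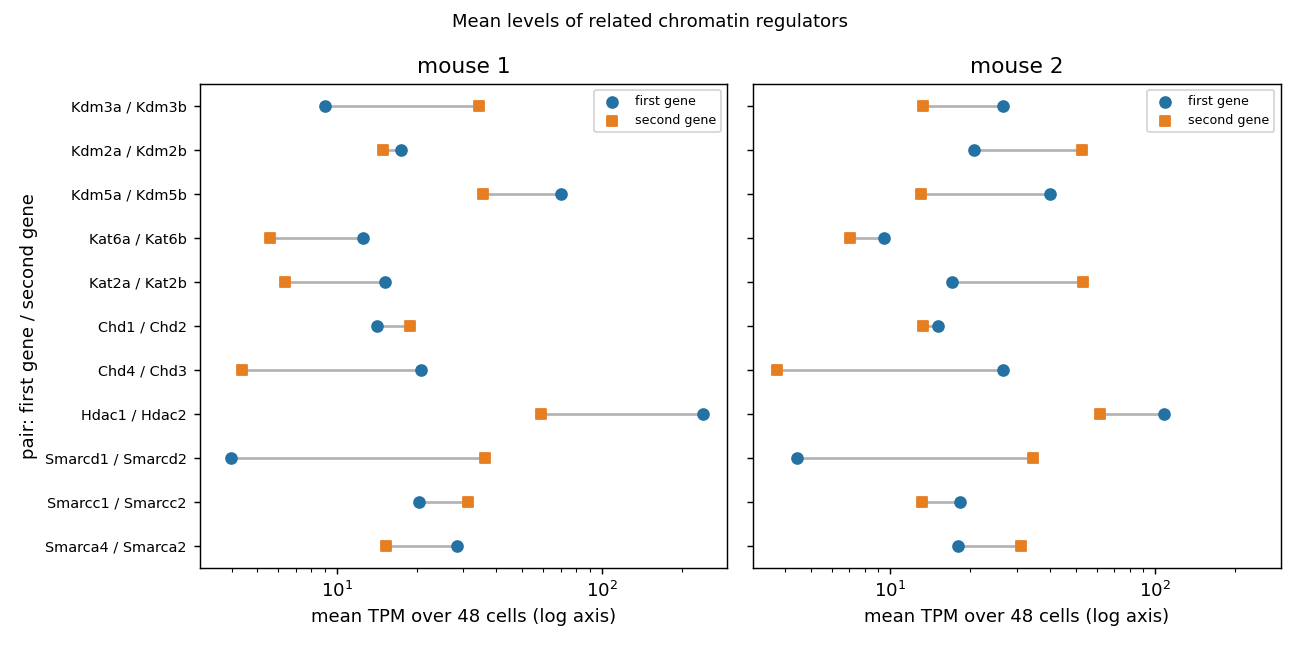
Mean TPM over 48 cells (log axis) of both partners of 11 paralog pairs in mouse 1 and mouse 2. Smarcd2 lay above Smarcd1 in both mice, at 36.3 and 34.6 TPM against 3.99 and 4.44 TPM. Smarca4 and Smarca2 changed places, and 1 cell held 42.6% of the Smarca2 total of mouse 2.

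Other chromatin genes outside the 6 families gave context. Of 14 genes of ISWI and other remodeler complexes 7 were lower by 1 or more in H2-Aa-high cells of both mice, of 24 histone lysine methyltransferases 10, of 20 NuRD and deacetylase partners 6, of 13 SWI/SNF partners 4, of 21 Polycomb genes 4 and of 26 acetyltransferase partners 4, where 19.3% of all genes were. Bptf, the histone-reading subunit of the NURF complex that holds an ISWI ATPase, differed by -3.47 and -3.17, and Actl6a (Baf53a), a SWI/SNF actin-related subunit, by -2.45 and -5.78. Rbbp7, a histone-binding subunit shared by NuRD and Polycomb complexes and the most abundant of these genes at 192 TPM, differed by -2.52 and -3.58, Ezh2 by -2.57 and -2.22, the PRC2 subunit Mtf2 by -3.61 and -6.37, and Epc1 of the TIP60 complex by -1.40 and -1.51. In Mpo-high cells Msl3, a partner of Kat8, was higher by 2.06 and 3.05, and the SWI/SNF subunit Dpf2 by 1.56 and 2.02.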

How the data were processed

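Messenger RNA of single cells was captured on Fluidigm C1 chips, amplified with the SMARTer kit and made into Nextera XT libraries from 125 pg of cDNA, per the labels' protocols. The deposited tables hold TPM and RPKM values per gene. TopHat2, RSEM and Bowtie2 and the builds mm10 and mm9 are named, per the submitters' processing notes; their roles and versions are not given in the sources used here. In the authors' deposited table TPM sums to 1000000 in every cell. It keeps no depth, so the sequencing depth is unknown, and counting intervals on shares of cells cover counting error only. Of the authors' RPKM values, 91.4% of those of the 53 members listed there stood at the gene's lowest value, so RPKM served only as an alternative. Whether RPKM was already on a log scale is not stated, and its log2 was taken with no pseudocount. With so many values at the lowest, differences in RPKM were drawn towards 0. Its counts, medians and signs therefore cannot decide whether a difference holds. No column lacked a sample (0 columns).

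Cells were grouped by mouse from the labels and by state from H2-Aa, S100a8 and Mpo at 1000 TPM, in that order; 1 cell of mouse 1 and 3 of mouse 2 passed for more than 1 of these. Wells were scored by eye for single cells, per the labels' protocols, and no doublet caller was run. Differences are of mean log2(TPM + 1), which understates low genes, and a gene was counted as lower or higher at an absolute difference of 1 or more, in both mice where both had the state. With 1 animal on each side there was no test. The members and gene lists were chosen with earlier results of these data known. The text names the 3 most abundant members of each family, the 3 with the largest difference in each direction per comparison (detected in at least 10 cells, same sign in both mice), the paralog pairs, and the leading genes of 6 lists of other chromatin genes; the genes listed as past the limit, Chd7 in H2-Aa-high cells and Brd2 in S100a8-high cells were named after their values were seen. Alternatives were the pseudocount (0.1 and 10), filters on the mean, removal of the number of detected genes, centring on all genes, rescaling, ratios of means, RPKM, the state threshold (500 and 2000 TPM), other reference cells and leaving out cells. The number of detected genes differed between states and between mice, so its removal can also take out part of the differences described. The calculation was tested on simulated data. A member of the set is counted in the totals and is not reported here by name, in pairs or in gene plots.

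Gene positions are from GENCODE M21 (GRCm38), promoters from RefSeq (GRCm38.p6). Software was Python 3.11.15, numpy 2.4.6, pandas 2.3.3, scipy 1.17.1 and matplotlib 3.10.9.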

Additional observations from a re-analysis of the deposited data

Results flagged for a closer look

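In Mpo-high cells 5 genes lay past the limit of 1 in opposite directions in the 2 mice, as differences in mean log2(TPM + 1) from rest cells, and the difference between the mice was not tested. Kdm1a had -1.76 in mouse 1 and 3.53 in mouse 2, Kdm2b had -1.26 and 2.95, Chd6 had -1.08 and 1.36, and Chd3 had -1.11 and 1.19. Kat7 had 1.61 in mouse 1 and -1.17 in mouse 2. Mouse 2 had 6 rest cells, of which 1 held Kdm1a, 2 held Kdm2b and Chd6, and 0 held Chd3.

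The S100a8-high and rest cells of mouse 2 were the groups of 4 to 10 cells, and with 8 summaries each (the number and sum of all members and 6 family sums) they gave 16 sets of values. In 2 of these a cell stood far from the others. The rule flags about 1 set in 20 for normally distributed values. These sums are skewed and the sets overlap, so that rate does not hold here. An S100a8-high cell of mouse 2 had 1954 TPM summed over the Hdac genes, and a rest cell of mouse 2 had 991 TPM summed over the Kdm genes.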

How the results depend on the processing

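No paired analysis was possible because the cells of the 2 mice share no replicate numbers. The use of all other cells as reference, of genes in at least 10 cells, and leaving out cells of mouse 2 were chosen after seeing the data. Cells were left out 1 at a time: rest cells of mouse 2 and, for the S100a8-high comparison, also its S100a8-high cells. No H2-Aa-high or Mpo-high cell and no cell of mouse 1 was left out in this way. Genes past the limit (count as reported first) changed as follows; the cause was not tested. Lower in mouse 2 (10): 16 with a pseudocount of 0.1, 0 with 10, 4 with the number of detected genes removed, 6 after centring on all genes, 2 in RPKM and 3 without the H2-Aa-high and S100a8-high cells. Higher in mouse 2 (1): 2, 0, 6 as ratios of mean TPM, 2 in RPKM, 4 without those cells and 10 in rest cells alone. H2-Aa-high lower (14): 7 with a pseudocount of 10, 7 with detected genes removed, 0 in RPKM, 11 to 14 leaving out cells. H2-Aa-high higher (1): 3 and 0 by pseudocount, 0 with detected genes removed, 4 centred, 5 as ratios, 1 to 2 leaving out cells. Mpo-high lower (1): 2 and 0 by pseudocount, 3 with detected genes removed, 2 centred, 6 as ratios, 0 in RPKM, 2 at a threshold of 2000 TPM, 0 against all other cells, 0 to 1 leaving out cells. Mpo-high higher (2): 5 with a pseudocount of 0.1, 0 in RPKM, 1 at 500 TPM, 6 against all other cells, 2 to 4 leaving out cells. S100a8-high lower (24): 13 with a pseudocount of 10, 15 with detected genes removed, 5 in RPKM, 14 against all other cells, 22 to 27 leaving out cells. S100a8-high higher (6): 1 with a pseudocount of 10, 13 as ratios, 2 in RPKM, 3 without cells of several states, 3 against all other cells, 4 to 9 leaving out cells.

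The H2-Aa-high median over the 57 genes was 0.00 in RPKM in both mice. In mouse 2 (-1.13) it was -1.69 and -0.53 with pseudocounts of 0.1 and 10, -0.12 with detected genes removed, -0.60 centred, and -1.20 to -0.79 leaving out cells. The Mpo-high median of mouse 2 was 0.75 against all other cells. The S100a8-high median (-0.71) was -0.18 with detected genes removed, 0.00 in RPKM and -0.85 to -0.28 leaving out cells. Several medians smaller than 1 in size changed sign, such as the Hdac, Kat and Kdm medians of H2-Aa-high cells of mouse 2. These reached 0.098, 0.109 and 0.131 leaving out single rest cells. Of values at or past 1 in size, signs turned in RPKM for the Brd median between mice (0.017) and the S100a8-high Smarc median (0.029). With detected genes removed, signs turned for the Brd median of H2-Aa-high cells of mouse 2 (0.19). They also turned for Kdm7a in H2-Aa-high cells of mouse 2 (-0.29 as a ratio, -0.12 in RPKM), for Smarcb1 in Mpo-high cells of mouse 1 (-0.12 in RPKM, -0.35 at 500 TPM), and in mouse 2 for Smarca2 in Mpo-high cells (0.15 in RPKM, -1.50 to 0.064 leaving out cells) and Brd9 in S100a8-high cells (0.10 in RPKM). At 10 TPM the median share of cells with both paralogs was 4.17% and 6.25%.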
